A study of Rattus norvegicus with 12 samples.

Results

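The genes of the insulin-like growth factor (IGF) system described here are the ligands Igf1 and Igf2, the receptors Igf1r and Igf2r, and the binding proteins Igfbp1 to Igfbp6. They were followed in tumor and normal rat liver cells with and without arginine. A probe set, the group of short probes that measures 1 transcript on the array, was taken when its annotation gave exactly 1 gene symbol and that symbol was a member. This gave 19 probe sets for 10 genes, of 12777 probe sets and 10411 genes with 1 symbol.

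RNA came from GP7TB cells ("tumor"), which form tumors in rats and were made by repeated exposure of WB-F344 cells to N-methyl-N-Nitro-N-nitrosoguanidine, and from WB-F344 cells themselves ("normal"), a diploid epithelial line that was derived from adult male Fischer-344 rat liver. Each line was grown for 18 hours in medium without arginine (arginine-deficient) or with 0.168 g/l of arginine (arginine-sufficient), in both cases with 5% fetal bovine serum, which itself carries growth factors and their binding proteins. The serum was not dialyzed, and the study therefore describes the deficient condition as an imbalance of amino acids rather than complete lack of arginine. Below, "without arginine" means that none was added to the medium. Each of the 4 groups held 3 cultures, 1 from each of 3 independent experiments with that line, and every culture was read on its own RAE230A array, 12 in all. Each cell type is a single line and GP7TB descends from clonal subpopulations, so a difference between tumor and normal cells is a difference between these lines. The RNA of whole cultures was measured, and fewer cells that express a gene and less RNA per cell cannot be told apart.

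IGF1 and IGF2 signal through the tyrosine kinase receptor encoded by Igf1r. The product of Igf2r, also the cation-independent mannose 6-phosphate receptor, takes IGF2 into the cell for degradation. The binding proteins hold IGFs in blood and tissue, prolong their life and either withhold them from the receptor or present them to it, and proteases free the IGFs by cutting the binding proteins. In the adult liver, hepatocytes are known as the main source of circulating IGF1 and of IGFBP1, whereas Igf2 is a gene of the fetal liver that is expressed from the paternal copy.

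The start sites of these genes were taken from RefSeq (GRCr8), which gave a promoter window of 300 bases, 250 before and 50 after the start, for 10 of 10 genes, Igf2 with 2 windows. The windows of Igf2, Igfbp2 and Igfbp4 are shown because these genes differed most between the cell lines, with CpG dinucleotides in capitals.
Igf2, chr1:207253931-207254230, minus strand: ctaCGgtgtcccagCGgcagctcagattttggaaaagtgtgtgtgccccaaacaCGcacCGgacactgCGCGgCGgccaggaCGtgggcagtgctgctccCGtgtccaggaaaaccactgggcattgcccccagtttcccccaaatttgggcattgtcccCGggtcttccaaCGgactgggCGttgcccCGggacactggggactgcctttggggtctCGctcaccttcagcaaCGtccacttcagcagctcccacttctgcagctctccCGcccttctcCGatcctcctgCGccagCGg
Igf2, chr1:207250426-207250725, minus strand: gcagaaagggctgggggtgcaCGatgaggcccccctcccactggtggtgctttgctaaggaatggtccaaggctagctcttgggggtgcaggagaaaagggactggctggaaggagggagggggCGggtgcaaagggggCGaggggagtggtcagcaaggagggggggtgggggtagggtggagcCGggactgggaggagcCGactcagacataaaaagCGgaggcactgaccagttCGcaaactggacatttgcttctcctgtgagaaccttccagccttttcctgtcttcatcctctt
Igfbp2, chr9:81864561-81864860, plus strand: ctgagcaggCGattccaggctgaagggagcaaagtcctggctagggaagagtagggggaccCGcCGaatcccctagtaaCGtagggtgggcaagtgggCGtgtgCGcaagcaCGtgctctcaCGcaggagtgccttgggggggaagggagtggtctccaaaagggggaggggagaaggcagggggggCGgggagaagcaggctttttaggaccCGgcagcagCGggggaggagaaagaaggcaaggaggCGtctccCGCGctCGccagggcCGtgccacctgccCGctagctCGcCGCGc
Igfbp4, chr10:84491221-84491520, plus strand: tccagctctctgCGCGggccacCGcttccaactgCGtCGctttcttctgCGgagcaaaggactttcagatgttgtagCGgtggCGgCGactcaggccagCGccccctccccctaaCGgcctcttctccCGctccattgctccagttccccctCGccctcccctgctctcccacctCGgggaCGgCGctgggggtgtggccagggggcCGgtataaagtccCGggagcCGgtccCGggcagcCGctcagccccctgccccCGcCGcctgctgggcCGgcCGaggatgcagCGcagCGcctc
They held 19 and 7 CpG dinucleotides for the Igf2 windows, 20 for Igfbp2 and 27 for Igfbp4, against a median of 7 over all 33469 windows of this length. Methylation was not measured.

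Both strands of each window were searched for TGATGNAA, the core of the amino acid response element, and for CAAAACAA, a part of the insulin response element known from Igfbp1. TGATGNAA was in 0 of the 11 windows of the family and in 3.98% of all windows. CAAAACAA was in the windows of Igfbp1, 121 bases before its start, and of Igf1, 67 bases before its start, and in 2.23% of all windows. The 30 bases around each match are shown with the match in capitals.
Igfbp1, chr14:86261145-86261174, plus strand: gagctcacaagCAAAACAAacttattttga
Igf1, chr7:24172454-24172483, plus strand: aaccccacccaCAAAACAAcacatgttctt
In the same annotation Igfbp1 and Igfbp3, Igfbp2 and Igfbp5, and Igf2 and H19 are next to each other, with 0 genes between the members of each pair.

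Values are linear signals from Microarray Suite 5.0, scaled by the authors on each array. Testing was limited to probe sets that reached the upper 54% of signals on 3 or more of the 12 arrays, and the signal at that limit, 146 to 191, is called the threshold here. Differences are log2 changes ± standard error from limma with 3 arrays per group, and a change passed when its Benjamini-Hochberg adjusted p over all 9745 tested probe sets was under 0.05. Of the 19 probe sets 9 were tested, for Igf2, Igf1r, Igf2r (2 probe sets), Igfbp2, Igfbp4, Igfbp5 and Igfbp6 (2 probe sets). Signals of different probe sets cannot be set against each other.

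The arrays of tumor cells were scanned on 1 day and those of normal cells on 3 other days, and no chip lot held arrays of both lines, so in comparisons of the lines neither the day of the scan nor the lot can be told apart from the cell line. Day and lot also cut across arginine pairs. The paired arrays of experiment 2 of normal cells differed in both, and those of experiments 1 and 2 of tumor cells differed in lot. Hepatocyte markers were low in both lines: of 11 on the array, 2 were above the threshold on all 3 arrays of arginine-deficient tumor cells (Apob and Cyp2e1), and 0 in each of the other groups. Krt8, an epithelial keratin, was above it on all 12 arrays, but Krt18 and Cdh1 on none. Among 6 biliary or oval cell markers, Krt7 was above it on all 12 arrays (175.8 to 382.4 in tumor and 3199 to 6321 in normal cells), Spp1 on all 6 arrays of tumor cells, and Krt19 and Epcam on none. The mesenchymal list (10 genes, among them Vim, Col1a1, Col1a2 and Tagln) had summed signals of 15768 to 23217 in arginine-deficient and 17769 to 21982 in arginine-sufficient tumor cells, against 57757 to 82660 in arginine-deficient and 74304 to 97047 in arginine-sufficient normal cells. These sums weigh the brightest probe sets most. Vim overlapped between the lines (10354 to 15657 in tumor and 13491 to 19486 in normal cells), and Thy1, Pdgfrb and Lrat were under the threshold on all 12 arrays. Of the 7 tested genes of the list, 5 were lower in arginine-deficient tumor cells, where 21.2% of all tested probe sets were. With arginine 7 were lower, where 18.1% of all were. The part of these markers in the differences below was not tested.

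**Figure D1:**
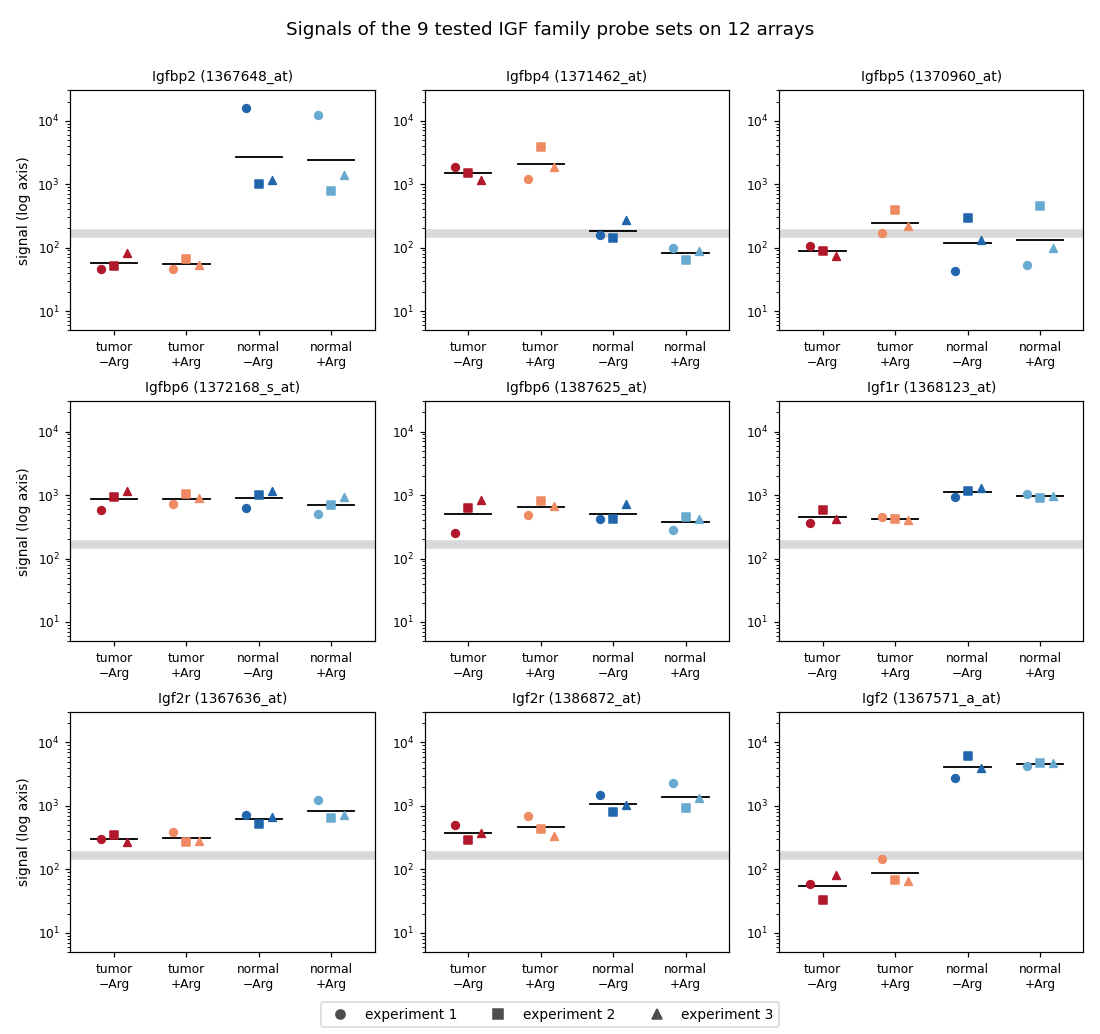
Signals of the 9 tested probe sets on a log axis, 1 point per array, with the symbol giving the experiment, the line the mean of the log2 signals of 3 arrays and the grey band the range of the threshold over the 12 arrays (146 to 191). Igf2 and Igfbp2 lie below the band in all 6 tumor arrays and above it in all 6 normal arrays, and Igfbp4 lies above it in all 6 tumor arrays.

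Between tumor and normal cells, the IGF system differed in ligand, receptors and binding proteins. Igf2, both receptors and Igfbp2 were lower in tumor cells, and Igfbp4 was higher. With arginine, 1 of the 9 probe sets was higher and 5 were lower in tumor cells, where 34.6% of all tested probe sets passed in either direction, 16.4% higher and 18.1% lower. Without arginine it was again 1 higher and 5 lower, the same probe sets, where 40.7% of all passed, 19.5% higher and 21.2% lower. The 6 tumor and 6 normal signals of these 6 probe sets did not overlap, which held for 29% of all tested probe sets, 13.7% with tumor cells higher and 15.2% with tumor cells lower.

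Igf2 (1367571_a_at) had the widest gap. Its signals in tumor cells were 59.5, 33.0 and 80.3 without arginine and 144.0, 68.8 and 65.6 with it. In normal cells they were 2765, 6044 and 4020 without arginine and 4317, 4725 and 4715 with it. All 6 tumor signals were under the threshold, so only a lower limit can be given: Igf2 was at least 25.8-fold lower in tumor cells without arginine (fitted log2 change -6.23 ± 0.36, adjusted p = 3.44e-08) and at least 27.5-fold lower with arginine (-5.72 ± 0.36, adjusted p = 8.65e-08). Without 1 array these limits were 21.2- to 31.3-fold and 26.6- to 28.8-fold. The other 3 Igf2 probe sets (1371206_a_at, 1388252_at and 1398322_at) were under the threshold on all 12 arrays, so the gene's difference rests on 1 probe set. Within normal cells, the signals with and without arginine overlapped.

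Igf1 was under the threshold throughout. Its probe set 1370333_a_at gave 9.8 to 41.2 and 1388469_at gave 63.8 to 153.5 over the 12 arrays, and neither was tested. The hepatic growth factor could thus not be compared between the groups.

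Igf1r (1368123_at), the signaling receptor, was 360.6, 586.6 and 422.4 in arginine-deficient and 452.6, 412.1 and 401.5 in arginine-sufficient tumor cells. In normal cells it was 946.1, 1142 and 1301 without arginine and 1044, 887.0 and 950.3 with it. It was lower in tumor cells by 1.33 ± 0.20 on the log2 scale without arginine (adjusted p = 0.000161) and by 1.18 ± 0.20 with arginine (adjusted p = 0.000465). The lowest normal signal was thus above the highest tumor signal, and the signals with and without arginine overlapped within each line.

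Igf2r was lower in tumor cells on both of its probe sets. On 1386872_at the signals were 507.3, 288.3 and 376.7 in arginine-deficient and 698.4, 432.0 and 332.1 in arginine-sufficient tumor cells, against 1491, 802.8 and 1033 in arginine-deficient and 2287, 929.1 and 1313 in arginine-sufficient normal cells. The log2 change was -1.50 ± 0.35 without arginine (adjusted p = 0.00449) and -1.60 ± 0.35 with it (adjusted p = 0.00346). On 1367636_at it was -1.04 ± 0.25 (adjusted p = 0.00465) and -1.42 ± 0.25 (adjusted p = 0.000672). Experiment 1 of normal cells with arginine gave the highest signal on both probe sets.

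**Figure D2:**
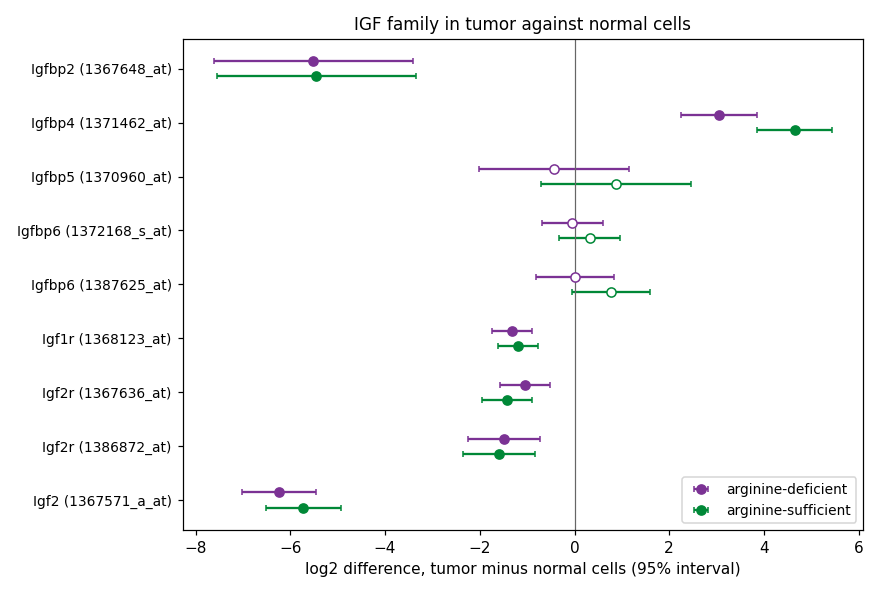
The log2 difference between tumor and normal cells for each tested probe set with its 95% confidence interval from limma (n = 3 arrays per group), without arginine (purple, upper) and with arginine (green, lower). Filled points passed at an adjusted p under 0.05. Igfbp4 alone lies right of 0 among these, at 3.05 and 4.65. The fitted values of Igf2 and Igfbp2 rest on tumor signals under the threshold. For Igfbp4, the value with arginine rests on normal signals under it, and the value without arginine on normal signals of which 1 of 3 was above it.

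Igfbp2 (1367648_at), a binding protein that is abundant in fetal liver, was at 45.2, 50.8 and 82.8 in arginine-deficient and 46, 65.2 and 53.7 in arginine-sufficient tumor cells, under the threshold on all 6 arrays. In normal cells it was 15558, 1014 and 1150 without arginine and 12194, 781.4 and 1410 with it. It was at least 16.7-fold lower in tumor cells without arginine (fitted log2 change -5.51 ± 0.98, adjusted p = 0.000627) and at least 14.3-fold lower with arginine (-5.45 ± 0.98, adjusted p = 0.000847). Both arrays of experiment 1 of normal cells stood far above the other 4 normal arrays. Without these arrays, a setting added after the data were seen, the lower limit was 6.86-fold without arginine (fitted change -4.23, adjusted p = 8.46e-06) and 6.30-fold with it (-4.27, adjusted p = 9.50e-06). Without 1 of the other normal arrays the limit was 18.5- to 26.9-fold.

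That step between experiments was rare among other genes. Of 8786 probe sets expressed in normal cells, both arrays of experiment 1 were at least 4-fold above all other normal arrays for 2, Igfbp2 and Col14a1, a fibril-associated collagen. The lowest experiment 1 signal of Igfbp2 was 3.11 above the highest of the other 4 on the log2 scale, and for Col14a1 the gap was 3.28. The next were Nrep, at 1.90, and Plagl1, an imprinted zinc finger gene, at 1.84. The neighbor of Igfbp2, Igfbp5 (1370960_at), had its lowest normal signals in experiment 1 (42.3 and 52.8).

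Igfbp4 (1371462_at), a binding protein that restrains IGF action until it is cut, ran the other way. Its signals were 1892, 1512 and 1168 in arginine-deficient and 1200, 3824 and 1888 in arginine-sufficient tumor cells. In normal cells they were 158.2, 139.7 and 267.6 without arginine and 99.2, 63.2 and 87.9 with it. It was higher in tumor cells by 3.05 ± 0.37 on the log2 scale without arginine (adjusted p = 3.18e-05), where 1 of 3 normal signals was above the threshold. With arginine, where the normal signals were all under the threshold, it was at least 11.3-fold higher (fitted log2 change 4.65 ± 0.37, adjusted p = 8.43e-07). Without 1 array that limit was 8.29- to 14.8-fold.

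Igfbp6, a binding protein with a preference for IGF2, was above the threshold on all 12 arrays with both probe sets, and its signals in tumor and normal cells overlapped. On 1372168_s_at the difference was -0.05 without arginine (95% interval -0.70 to 0.59) and 0.32 with it (-0.32 to 0.97). On 1387625_at it was 0.01 (-0.81 to 0.83) and 0.77 (-0.04 to 1.59), with adjusted p of 0.986 and 0.134. A change as large as that of Igf1r was outside the intervals of 1372168_s_at. The value of 1387625_at with arginine passed when 1 array, arginine-deficient tumor cells of experiment 1, was left out (0.77, adjusted p = 0.0422). The suffix s marks probes that may match several transcripts.

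Igfbp5 did not pass between the lines. On 1370960_at the change was -0.42 ± 0.74 without arginine (adjusted p = 0.678) and 0.88 ± 0.74 with it (adjusted p = 0.391). Without both arrays of experiment 2 of normal cells, whose signals of 288.3 and 459.2 were the highest of that line, it was 1.77 with arginine (adjusted p = 0.0273).

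Igfbp1 and Igfbp3 were under the threshold on all 12 arrays. Igfbp1 (1368160_at), the binding protein that hepatocytes induce in fasting, ranged over 10.8 to 65.2. Igfbp3, the main carrier of IGFs in blood, ranged over 11.5 to 25.3 on 1367652_at and 18.4 to 87.4 on 1386881_at. A response of these genes to arginine was therefore not measurable here.

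**Figure D3:**
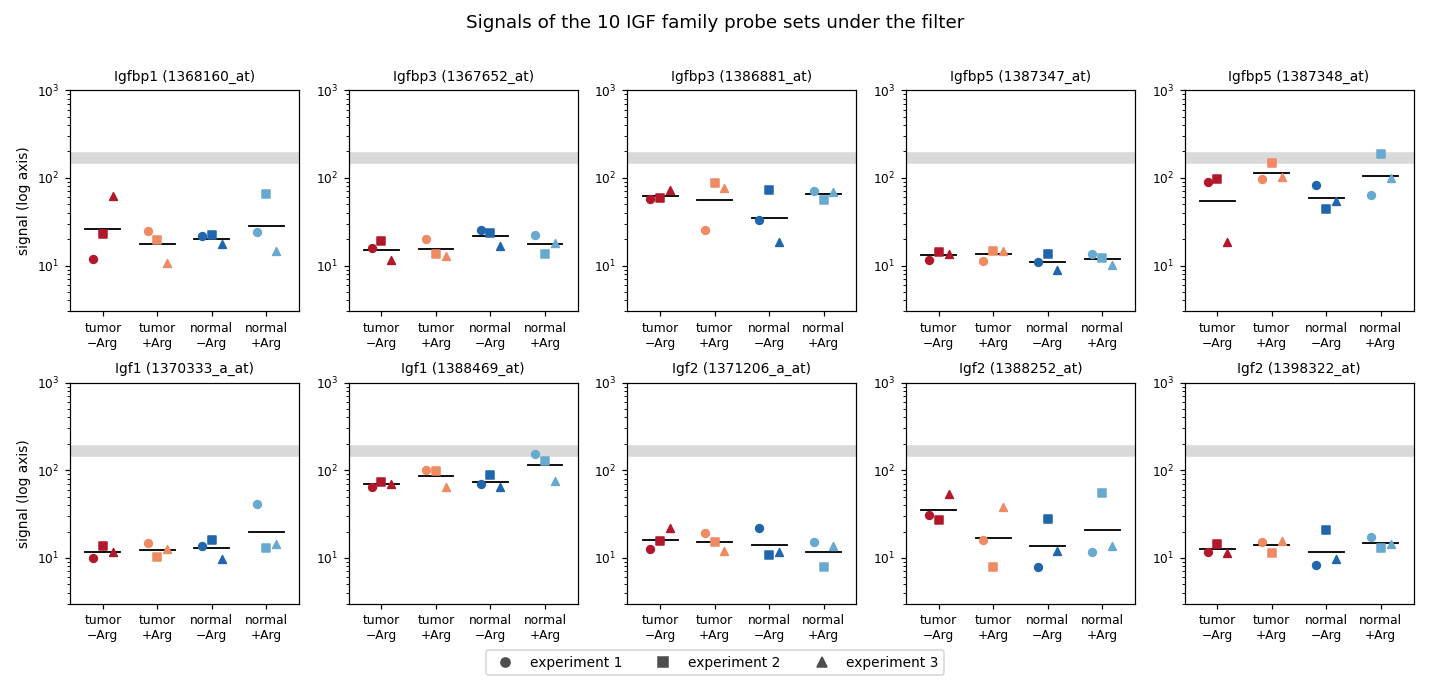
Signals of the 10 probe sets of the family that were not tested, on a log axis, with symbols, lines and band as in the plot of the tested probe sets. All but 1 of the 120 signals lie under the threshold of their array. The exception is Igfbp5 (1387348_at) in arginine-sufficient normal cells, at 184.6.

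Whether arginine deprivation changed the family was asked within each line. In tumor cells 0 of the 9 probe sets passed, where 1.91% of all 9745 passed and 15.3% had an unadjusted p under 0.05. In normal cells 0 of 9 passed, where 0.164% of all passed and 9.44% had an unadjusted p under 0.05. When experiments were fitted as a block, 0 of 9 passed in normal cells too, where 235 of all probe sets passed against 16 without the block. Without the block, the difference between the responses, tumor minus normal, passed for 0 of 9 and for 0% of all, with 5.64% at an unadjusted p under 0.05. Of the members, 0 had an unadjusted p under 0.05 in tumor cells, 1 in normal cells and 1 in the difference, Igfbp4 in both cases. A plain linear model without the block passed 0 of 9 in each of these comparisons.

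Igfbp5 (1370960_at) came closest in tumor cells. Its signals were 105.0, 87.4 and 72.7 in arginine-deficient and 169.2, 398.0 and 218.3 in arginine-sufficient tumor cells, which did not overlap, as was so in this direction for 13.6% of all tested probe sets. The log2 change was -1.49 ± 0.74 (adjusted p = 0.365, limma), and 2 of the 3 arginine-sufficient signals and 0 of the arginine-deficient ones were above the threshold. Measured against the threshold, the gap was at least 1.56-fold, and at least 1.22- to 1.87-fold without 1 array. With low signals raised to the threshold the change was -0.67 (adjusted p = 0.375). Within experiments it was -0.69, -2.19 and -1.59, and within chip lots -1.27 and -1.92. With the experiment as a block the change of -1.49 had an adjusted p of 0.0162 and passed, as did 1069 of all 9745 probe sets. The arrays paired in experiment 2 of tumor cells shared little else, with a correlation of 0.0368 between their deviations from the group means.

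A further Igfbp5 probe set, 1387348_at, which was not tested, gave 89.3, 95.9 and 18.4 in arginine-deficient and 96.4, 147.7 and 101.7 in arginine-sufficient tumor cells. The arginine-deficient array was below its partner in 3 of 3 experiments, with all 6 signals under the threshold. The last Igfbp5 probe set, 1387347_at, was not tested either and ranged over 8.9 to 14.7 on the 12 arrays, under the threshold. Its log2 ratios in experiments 1 to 3 of tumor cells were 0.04, -0.04 and -0.11. In normal cells, 1370960_at was 42.3, 288.3 and 132.2 without arginine and 52.8, 459.2 and 98 with it, with a change of -0.19 ± 0.74 and overlapping groups. Among normal arrays of 1 chip lot the change was 0.70, and on the scan days with both groups 1.06 and 0.43. The difference between the lines' responses was -1.30 ± 1.04 (adjusted p = 0.968).

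Igfbp4 came closest in normal cells. Its change without arginine was 1.14 ± 0.37 on the log2 scale (adjusted p = 0.325, limma), and within experiments it was 0.67, 1.14 and 1.61. Among normal arrays of 1 chip lot it was 0.95, and on the scan days with both groups 0.58 and 1.61. The arginine-deficient and arginine-sufficient signals, given above, did not overlap, as was so in this direction for 6.18% of all tested probe sets. Only 1 of these 6 signals, 267.6, was above its threshold. With low signals raised to the threshold the change was 0.12, and no lower limit above 1-fold could be given. In tumor cells it was -0.46 ± 0.37 (adjusted p = 0.615), and the difference between the responses was -1.60 ± 0.52 (adjusted p = 0.824, limma).

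The receptors and Igf2 showed smaller values. Igf2r was below its arginine-sufficient partner in 3 of 3 experiments of normal cells on both probe sets, with changes of -0.40 ± 0.25 on 1367636_at (adjusted p = 0.664) and -0.39 ± 0.35 on 1386872_at (adjusted p = 0.788), and in tumor cells the changes were -0.02 ± 0.25 and -0.29 ± 0.35. Igf1r changed by 0.08 ± 0.20 in tumor cells (95% interval -0.34 to 0.51) and by 0.23 ± 0.20 in normal cells (-0.20 to 0.65), intervals that do not reach a log2 change of 1 in either direction. Igf2 in normal cells was at -0.17 ± 0.36 (-0.96 to 0.61).

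The study's rule was applied in part, as a ratio of at least 2 in at least 6 of 9 comparisons of arginine-deficient with arginine-sufficient arrays. The filter on signals stood in for the study's present calls, and its calls of increase or decrease were not used. Of the member probe sets, 0 counted among those expressed in the line, where 2.1% of all did in tumor cells and 0.797% in normal cells. Igfbp5 (1370960_at) was lower in 7 of 9 ratios in tumor cells but was above the threshold on 2 arrays of that line, too few for the filter. Igfbp4 was higher in 5 of 9 in normal cells and was above the threshold on 1 array of that line, also too few for the filter.

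**Figure D4:**
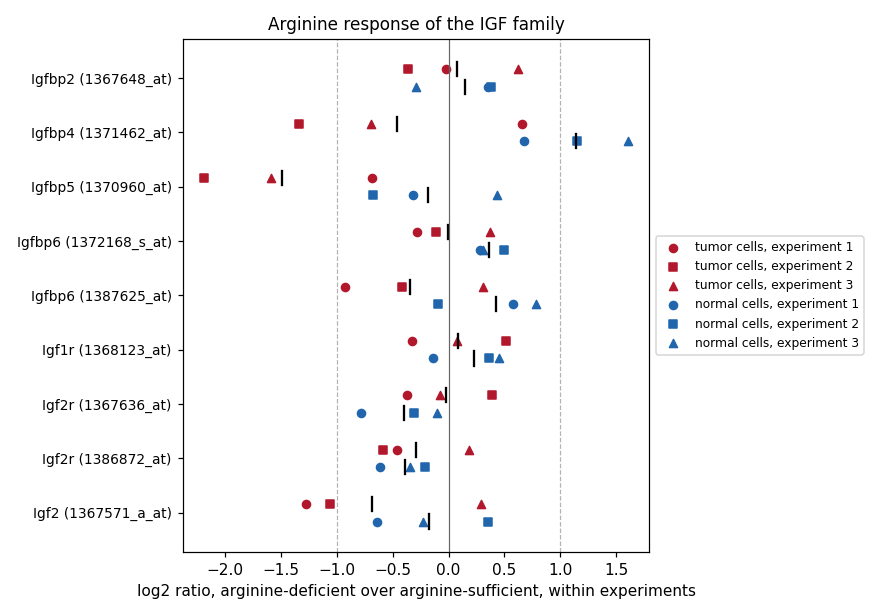
Log2 ratios of arginine-deficient over arginine-sufficient signals within each experiment for the 9 tested probe sets, in tumor cells (red, upper) and normal cells (blue, lower). Black bars are means of 3 experiments and dashed lines mark a ratio of 2 in either direction. Igfbp5 in tumor cells lies left of 0 in all 3 experiments (-0.69, -2.19 and -1.59) and Igfbp4 in normal cells right of 0 in all 3 (0.67, 1.14 and 1.61).

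Genes that moved across arrays as these probe sets did were sought among 8326 others, by Pearson correlation over the 12 arrays after each line's mean was removed, as a description. For Igfbp5 (1370960_at) they were Mrpl33 (r = 0.919), Add1 (0.918) and Prps1 (0.897). For Igfbp4 they were Canx (0.903), Fry (0.862) and Stx7 (0.846). The points share arrays, and with them scaling and experiment.

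Other genes around the IGF axis were taken from 8 lists, with 1 probe set per gene. Of their 73 tested genes, 2 (2.74%) passed without arginine in tumor cells, near the 1.91% of all probe sets, and 0 passed in normal cells (limma, with 8 at an unadjusted p under 0.05). When experiments were blocked, 11 passed in tumor cells, where 1069 of all 9745 probe sets did, and 2 in normal cells. The 9 that were added in tumor cells were Adamts1, Ccn2, Cebpb, Htra1, Mmp14, Pik3r1, Pik3r3, Rps6kb1 and Spry2. Eif4ebp1, a repressor of translation that MTOR inactivates, averaged 5550 in arginine-deficient and 2299 in arginine-sufficient tumor cells (1.28 ± 0.18, adjusted p = 0.00487), and in normal cells the change was 0.81 ± 0.18 (adjusted p = 0.127), which passed with the experiment as a block (adjusted p = 0.00886). Ddit4, a stress-induced inhibitor of MTOR signaling, also passed in normal cells with that block alone (0.86, adjusted p = 0.0464). Plau, the urokinase that activates plasmin, a protease of binding proteins, averaged 453.2 in arginine-deficient and 1284 in arginine-sufficient tumor cells (-1.53 ± 0.27, adjusted p = 0.0150). In normal cells Plau averaged 73.8 without and 59.1 with arginine, under the threshold on every array (0.33 ± 0.27, adjusted p = 0.754, limma). The study, by its own rule, lists urokinase as decreased in both cell types. Eif4ebp1 and Plau lost their call in tumor cells without experiment 2, which the array records give as taken without trypsin and the other 2 with it, at an adjusted p of 0.147 and 0.215. Their changes there were 1.25 and -1.67, and 10 of all probe sets passed, against 186 with all arrays. The part of trypsin was not tested. Plau also lost its call without any 1 of 3 tumor arrays, arginine-deficient of experiment 2 and arginine-sufficient of experiments 1 and 2, at an adjusted p of 0.0575 to 0.0766, and in a plain linear model (0.0603).

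Both lines were then set against each other, with arginine. Among proteases of binding proteins and their partners, 3 of 11 tested genes were higher and 3 lower in tumor cells with arginine, with a median log2 difference of 0.07, against 0.00 over all tested probe sets. Over all probe sets 16.4% were higher and 18.1% lower, shares against which the counts of this and the following lists are given as a description. Plau was at least 7.06-fold higher and Plat, the tissue plasminogen activator, at least 12.4-fold lower. Adamts1, a secreted metalloproteinase, was lower by 4.01 ± 0.25 on the log2 scale, and Htra1, a secreted serine protease, was higher by 1.21 ± 0.16.

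Among the insulin receptor and docking proteins, 3 of 13 were higher and 4 lower, with a median of -0.41. Grb10, an imprinted adaptor that binds the IGF1 and insulin receptors and dampens their signal, averaged 10.7 in tumor and 3880 in normal cells with arginine, at least 23.3-fold lower (adjusted p = 2.75e-12). Without arginine it was at least 31.6-fold lower. Of the other genes in this list, the adaptor Sh2b2 was at least 1.74-fold lower and the adaptor Sh2b1 was lower by 1.47 on the log2 scale. Gab1, a docking protein, was higher by 1.47 on that scale.

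Of the PI3K, AKT and FOXO genes, 2 of 15 were higher and 4 lower (median -0.08). They included Pik3r3, a regulatory subunit of PI3K (at least 1.84-fold lower), Foxo3, a transcription factor that AKT holds in check (-1.50 ± 0.14), Gsk3b, a kinase that AKT inhibits (1.41 ± 0.25), and Cdkn1b, a cell cycle inhibitor (-0.85 ± 0.20), whose call was lost with the mean of its probe sets (adjusted p = 0.342). Of the TSC and MTOR genes, 1 of 16 was higher and 3 lower (median -0.17). Castor1, a cytosolic arginine sensor, was at least 2.34-fold higher, and of the inhibitors of MTOR signaling Ddit4 and Deptor were lower (-1.60 and -1.17) and Sesn1 was at least 1.32-fold lower. The call of Deptor was lost without 1 array of 3 and that of Sesn1 without 1 of 4, at adjusted p of 0.0527 to 0.0872 and of 0.0599 to 0.121, and in a plain linear model (0.0629 for Deptor and 0.0576 for Sesn1), and that of Sesn1 also with low signals raised to the threshold (adjusted p = 0.255). In the RAS and ERK list and in the growth hormone axis, 0 of 5 tested genes each passed.

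Of the secreted proteins related to the binding proteins, 1 of 7 was higher and 5 lower, with a median of -1.33. The CCN genes encode matrix proteins with a domain like that of the binding proteins: Ccn3 (-3.32 ± 0.44), Ccn1 (-2.12 ± 0.45) and Ccn4 (-1.33 ± 0.29) were lower, as was Igfbp7 (-1.55 ± 0.29), a binding protein of low affinity for IGFs. The gene that was higher was Htra1. H19, the imprinted noncoding RNA beside Igf2, averaged 49.3 in tumor and 266.8 in normal cells with arginine, at least 1.21-fold lower (fitted change -2.14 ± 0.63, adjusted p = 0.0178), with 1 of the 3 normal arrays and none of the tumor arrays above the threshold. The call was lost without experiment 1 of normal cells (adjusted p = 0.115), without that experiment's arginine-sufficient array alone (0.0967), without the arginine-sufficient tumor array of experiment 3 (0.0721), in a plain linear model (0.0588) and with low signals raised to the threshold (0.142). M6pr, the cation-dependent mannose 6-phosphate receptor, was higher by 0.96 ± 0.16 (adjusted p = 0.000466).

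**Figure D5:**
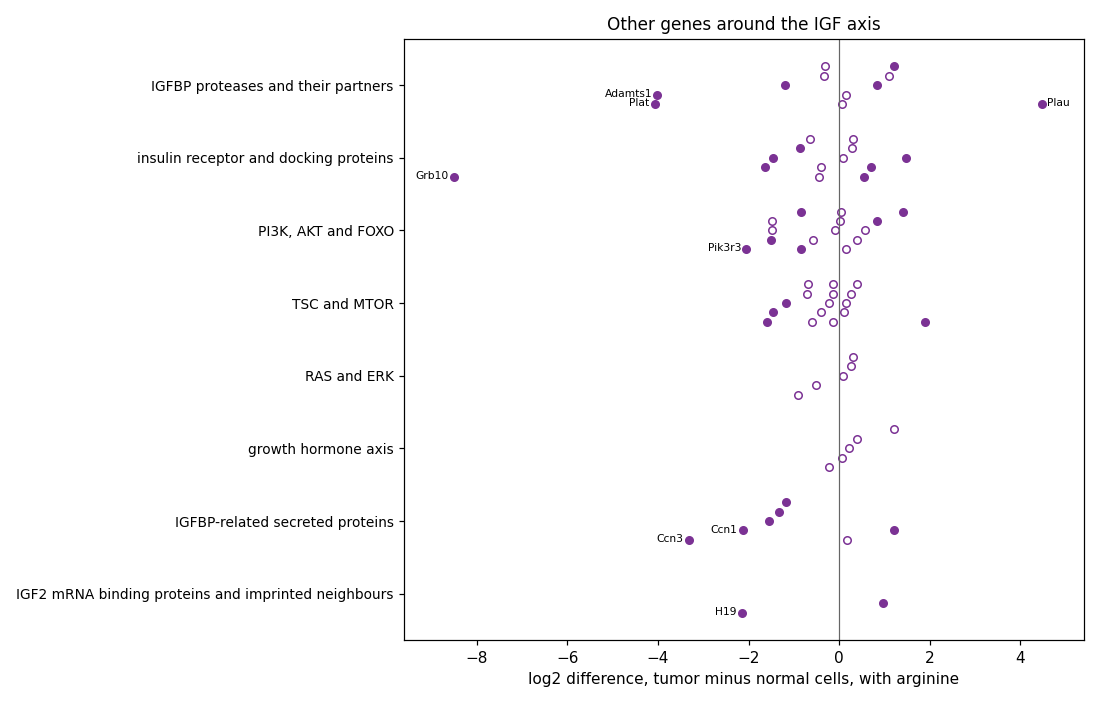
Log2 difference between tumor and normal cells with arginine for each tested gene of 8 lists, 1 row per list, with filled points at an adjusted p under 0.05 and names where the size is at least 2. Grb10 lies farthest left, and Plau farthest right, and the fitted values of Grb10, Sh2b2, Plat, Plau, Pik3ca, Pik3r3, Sesn1, Castor1 and H19 rest on signals under the threshold in 1 of the lines.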

How the data were processed

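Total RNA from 12 cultures, 3 per group, was hybridized to 12 RAE230A arrays. The deposited values are intensity signals that the authors computed with Microarray Suite 5.0 and scaled on each array. After the highest and lowest 2% of signals were trimmed, the array means were 500.1 to 500.2 and the medians 173 to 226. The number of arrays limits the precision.

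Of 15923 probe sets, 12777 had 1 gene symbol in the platform annotation and 311 had several. All 19 member symbols matched RefSeq by gene ID. Signals were set to at least 1 and taken to log2. The 9745 probe sets among the highest 54% of an array in at least 3 arrays were fitted on all 12 arrays with limma 3.58.1 (R 4.3.3), with an intensity trend, and p-values were adjusted by Benjamini-Hochberg, with a threshold of 0.05. The fit was tested on simulated data. Where a group was under the threshold on all 3 arrays, the ratio was computed against the array's threshold or the probe set's own signal, whichever was higher, and given as "at least". Such a limit allows for the dim signals alone and holds no sampling error of the brighter group. Separate cultures were made in separate experiments, so p-values measure the spread among them. All member probe sets were named. Of the lists, genes that passed in an arginine comparison were named, and up to 4 with the largest difference among those that passed between the lines with arginine. Listed genes that passed an arginine comparison with the block alone were added after their values were seen. Of several probe sets for a listed gene, 1 was used.

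Experiments were tried as a replicate block. The deviations of paired arrays from the group means correlated at 0.56, 0.0368 and 0.419 in tumor cells and at 0.429, 0.42 and 0.383 in normal cells. The pair of experiment 2 of tumor cells did not pass a limit of 0.1. The fit without the block was therefore kept for both lines, though every pair of normal cells was above that limit. The arginine calls depend on this choice: with the block 1069 probe sets passed in tumor cells against 186, and 235 in normal cells against 16. Other alternatives were filters, offsets, scalings, blocks for scan day and chip lot, and leaving out arrays. Members and lists were chosen with earlier results of these data known. Figures were drawn with matplotlib 3.10.9.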

Additional observations from a re-analysis of the deposited data

Results flagged for a closer look

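Igf2 probe set 1388252_at moved in opposite directions in the lines without arginine. Its log2 ratio of arginine-deficient over arginine-sufficient signals was 0.94, 1.77 and 0.50 in experiments 1 to 3 of tumor cells and -0.58, -0.98 and -0.19 in those of normal cells. All 12 signals were under the threshold, and the difference between the lines was not tested.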

How the results depend on the processing

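All 12 member comparisons that passed, each between tumor and normal cells, kept their direction and passed under every alternative run. Of the 33 that did not pass, 3 passed under at least 1 alternative: Igfbp5 (1370960_at) in tumor cells with the experiment as a replicate block (-1.49, adjusted p = 0.0162), which took the members called there to 1, Igfbp6 (1387625_at) with arginine between the lines without the arginine-deficient tumor array of experiment 1 (0.77, adjusted p = 0.0422), and Igfbp5 between the lines with arginine without both arrays of experiment 2 of normal cells (1.77, adjusted p = 0.0273). The block changed no other call of a member. Without both tumor arrays of experiment 2, recorded as taken without trypsin, Igfbp5 in tumor cells was at -1.14 (adjusted p = 0.840). Over all probe sets, the calls without arginine in tumor cells (186) were 115 with no filter, 29 in a plain linear model, 1069 with the block, 25 to 200 with 1 array left out and 10 without both arrays of experiment 2. Those in normal cells (16) were 9 with no filter or no intensity trend, 0 in a plain linear model or with the arrays of 1 line alone, 5 with the mean of a gene's probe sets, 39 with scan day as a block, 235 with the experiment block and 3 to 49 with 1 array left out. The difference between responses gave 0 to 5. Median centring moved the median log2 difference between the lines to 0.12, from 0.01 without and 0.00 with arginine, and split the calls in tumor cells into 108 higher and 52 lower, where 94 and 92 were called before. Quantile normalization gave 86 and 62. The cause of these shifts was not tested. Members under the threshold on every array could not be measured, whatever the setting. The settings without 2 arrays were chosen after seeing the data.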
